A study of Mus musculus with 9 samples.

Results

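Zscan10 and 9 related mouse genes that encode SCAN zinc finger proteins (Zscan12, Zscan21, Zscan22, Zscan26, Zscan29, Zkscan1, Zkscan3, Zkscan5 and Zkscan17) were followed across all 9 RNA-seq libraries of a Zscan10 mutation experiment. They were chosen by gene name and are 10 of the 23420 genes listed in the deposited table. The cells were RAW264, a mouse macrophage-like line from the RIKEN cell bank that can form osteoclasts when given the cytokine RANKL, and no library came from RANKL-treated cells. Control cells and the mutants KO #1 and KO #2 (KO1 and KO2 below) had 3 libraries each. The mutants were made with the Guide-it-ZsGreen1 vector, which carries Cas9 and a guide RNA, by Neon electroporation and sorting of single cells, so each mutant is taken as 1 clone, and differences between clones cannot be told apart from effects of a mutation. The sample characteristics place the KO1 mutation in exon 2 of Zscan10 and the KO2 mutation in exon 5, but the names of the raw reads carry these exon numbers the other way round, so which clone has which mutation is not settled by the labels.

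SCAN zinc finger proteins bind DNA through arrays of C2H2 zinc fingers, and the leucine-rich SCAN domain lets them pair with themselves or with one another. The members named Zkscan also carry a KRAB domain in most cases, which recruits the corepressor Trim28 and with it the histone methyltransferase Setdb1. Zscan10 is best known from mouse embryonic stem cells, where it acts with the pluripotency factors, whereas little is known of most other members in macrophages. By the series title, the study asked how Zscan10 bears on the differentiation of osteoclasts.

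By the exon numbering used here, the exons named in the labels hold coding sequence of Zscan10 on chromosome 17 (GRCm38, plus strand). The transcript used has the exon number and the first 5 exons of the deposited annotation, while the end of its last exon differs. It is 1 of 12 annotated transcripts, and the labels do not say which transcript their exon numbers follow. In it the gene had 6 exons and 782 codons. Exon 2 held the start codon and codons 1 to 131, which end on a whole codon. Exon 5 was 58 bases long and reached from codon 242 to codon 261, with 1 base over. The guides were not analysed here, so the cut positions within these exons are not shown. The first 120 coding bases of exon 2 (chr17:23605572-23605691) and the whole of exon 5 (chr17:23608108-23608165) are printed because they are where the labels place the mutations, and the capitals mark the start codon.
Zscan10 exon 2: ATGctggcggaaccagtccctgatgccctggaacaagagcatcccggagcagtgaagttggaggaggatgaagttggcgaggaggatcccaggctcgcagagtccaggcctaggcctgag
Zscan10 exon 5: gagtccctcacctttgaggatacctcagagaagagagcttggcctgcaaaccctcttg

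Reads counted on the listed genes numbered 1821703 to 2458539 per library, 19463573 in all, and 13569 genes had a read. Reads outside the listed genes are not in these numbers. Values are normalised reads, that is, reads divided by the authors' size factor of the library. All 12 macrophage markers had reads, though Mrc1 had 3 in the 9 libraries together and 0 in control. Their summed level was 30020 to 31060 normalised reads in control, 44033 to 45120 in KO1 and 40224 to 41515 in KO2. Most of this sum was Lyz2, with 17632 ± 451 in control, 30181 ± 493 in KO1 and 27720 ± 582 in KO2 (SD, n = 3). Of the 11 markers tested, 6 rose and 1 fell in KO1 against control, and 2 rose and 5 fell in KO2 against control (median log2 changes 0.17 and -0.07). Over all tested genes, 20.8% and 22.5% rose or fell in these comparisons at the same adjusted p under 0.05 in limma. The 7 osteoclast markers, with Calcr at 0, summed to 21.0 to 26.2 in control, 21.6 to 33.9 in KO1 and 71.7 to 78.3 in KO2. Most of the KO2 sum was Acp5 and Dcstamp, the 2 that were tested. Mean Acp5 was 1.85 in control, 8.1 in KO1 and 31.7 in KO2. It was higher in both clones (log2 changes 1.89 and 3.75, adjusted p = 0.000124 and 7.27e-12 in limma). However, Acp5 entered the test only through KO2, where its libraries reached the 10 normalised reads asked of tested genes. These tests are therefore not independent of the filter. Control held 6 Acp5 reads in all, with 0 in replicate 3, and the calls of Acp5 were not followed under other settings. Mean Dcstamp was 17.6, 13.5 and 27.7. Its changes of -0.38 and 0.63 did not pass (adjusted p = 0.343 and 0.0726 in limma). All 4 epithelial markers were at 0, as were 4 of 6 stromal, 3 of 6 T cell, 3 of 5 B cell and 4 of 5 embryonic stem cell markers. The other markers of these cell types had too few reads to be tested. The part of these marker shifts in the results below was not tested. The labels do not state whether the 3 libraries per group were grown separately, and the p-values therefore cover no more than the variation among the libraries. In bulk RNA, fewer cells with a transcript and less transcript per cell cannot be told apart.

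Zscan10 itself had 0 reads in each of the 9 libraries, the 3 control libraries included. A count of 0 allows up to 3 reads, for counting error only. This is 0.154 CPM (reads scaled to the reads counted on listed genes) over all libraries, or 1.22 to 1.65 CPM in a single library. Over the length of the transcript the limit for all libraries together was 0.057 RPKM (CPM per kilobase of transcript). Its RNA was therefore not detectable at this depth in control or mutant cells. The level of the gene gives no check of which libraries are mutant, and no change of Zscan10 between groups could be measured. Of the 22 pluripotency genes listed beside it, 16 had no read in any library, among them Pou5f1, Sox2, Zfp42 and Esrrb. A further 5, Nanog, Klf2, Tfcp2l1, Dppa2 and Gdf3, had reads but too few to be tested.

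The other 9 genes were all expressed. Each passed the filter on low values, which asked for 10 normalised reads or more in 3 or more libraries and left 9564 genes in all. In the plot of normalised reads by library, Zscan10 lies on the axis and the 9 others lie between 10.8 and 139.3.

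**Figure D1:**
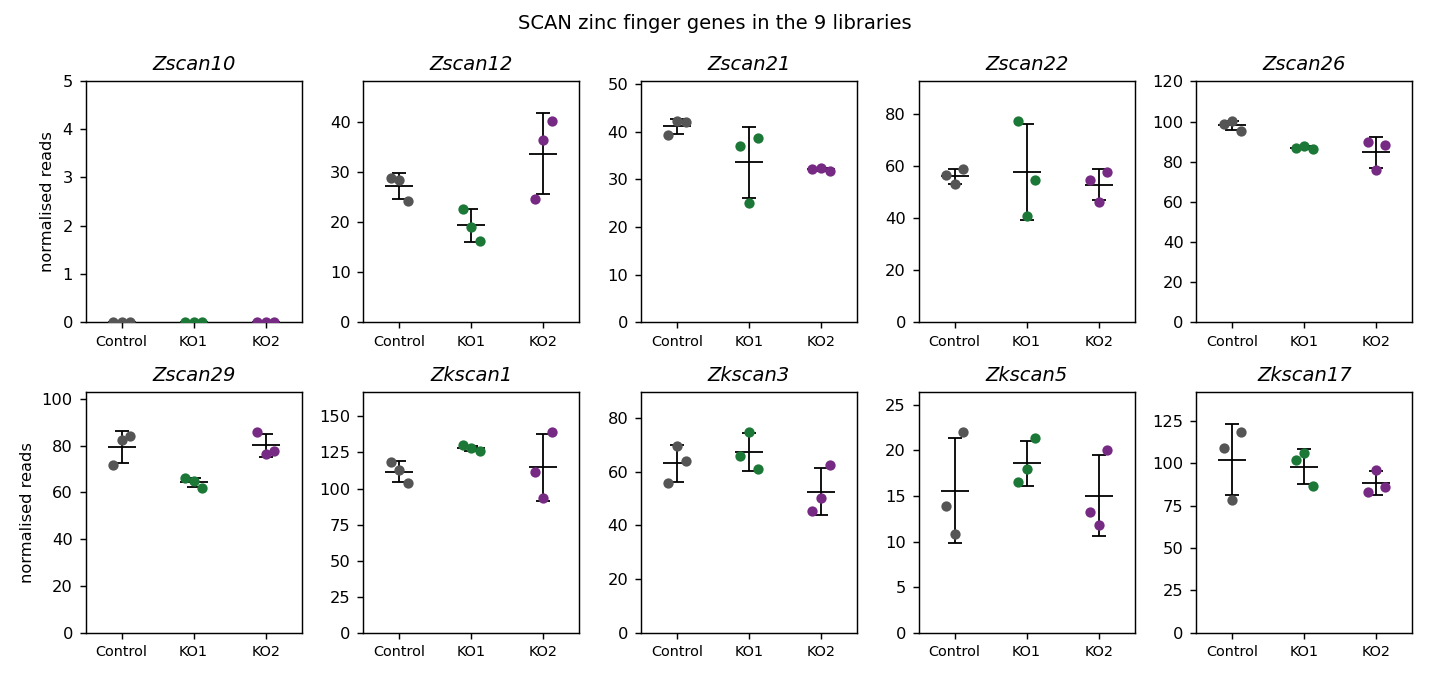
Normalised reads of each of the 10 genes (vertical axes, each starting at 0) in the 3 libraries of control, KO1 and KO2. Points are libraries, and bars are the mean ± SD of 3 libraries. Zscan10 is at 0 throughout, and Zscan12 is lower in all KO1 libraries (16.3 to 22.7) than in all KO2 libraries (24.5 to 40.1).

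Between genes, levels were compared per length. In control cells Zkscan17, known in mouse as a partner of the histone methyltransferase Nsd1, had 11.8 ± 2.40 RPKM (SD, n = 3). Zscan26 had 11.5 ± 0.282 RPKM and Zkscan3 had 11.4 ± 1.29 RPKM. Zscan22 followed with 10.0 ± 0.510 RPKM. The control libraries of neighbours in this order overlapped, while those of Zscan26 (11.2 to 11.8 RPKM) lay above those of Zscan22 (9.49 to 10.5 RPKM). Zscan21, studied as Zipro1 in mouse cerebellar granule cell precursors, had 8.32 ± 0.359 RPKM. Zkscan1, whose human gene is known for a circular RNA that is not measured here, had 6.33 ± 0.408 RPKM. Zscan29 had 5.38 ± 0.476 RPKM. The control libraries of these last 3 genes overlapped neither with each other nor with those of Zscan22 above them. Zscan12 with 2.87 ± 0.272 RPKM and Zkscan5 with 1.92 ± 0.716 RPKM closed the order and overlapped. For reference, the median control level was 7.95 RPKM over the 13569 genes with a read and 15.1 RPKM over the 9564 tested genes, so the highest of the members lay below the median tested gene.

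Among 31 further SCAN genes with a row, 15 were tested, 10 had reads but stayed under the filter with at most 54 reads in the 9 libraries together, and 6 had none (Zscan4c, Zscan4d, Zscan4f, Zkscan2, Zkscan16 and Peg3). In the tested group Zfp445, which maintains imprinting marks in mouse and human, had the highest control level at 24.7 ± 0.631 RPKM. The plot of levels per length shows the members spread over the upper and middle part of the family.

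**Figure D2:**
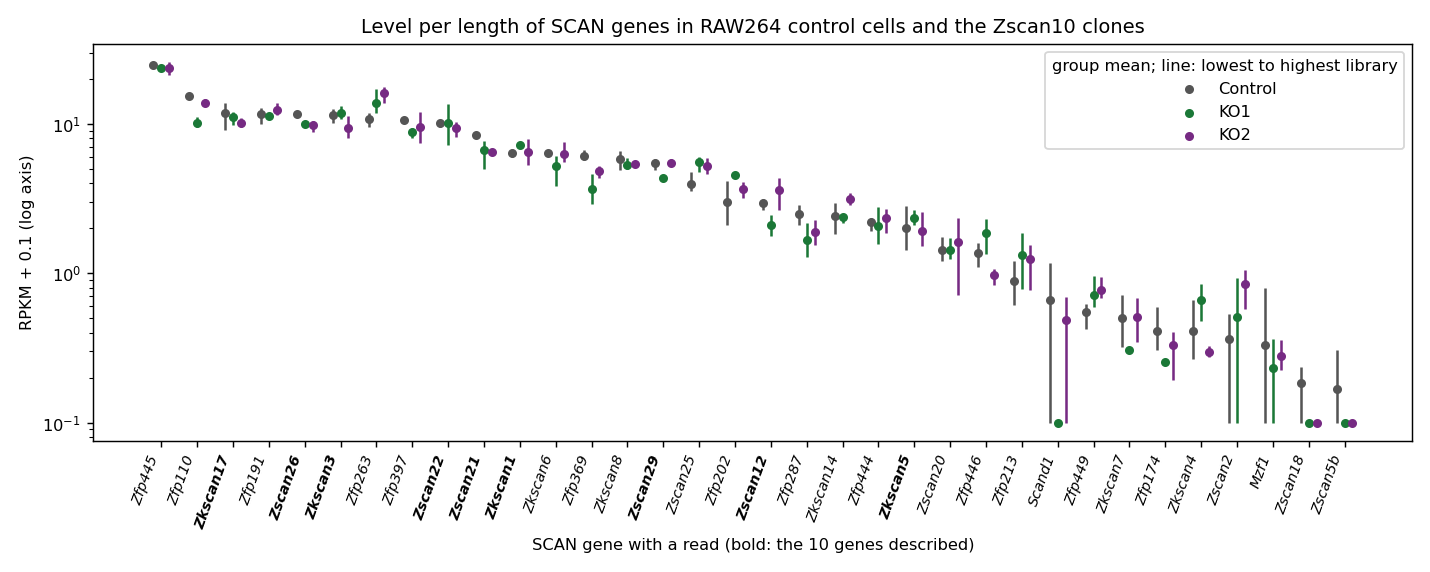
RPKM + 0.1 on a log axis for the 34 SCAN genes with a read, ordered by control level. Points are group means of 3 libraries, lines run from the lowest to the highest library, and the 9 expressed members are in bold. Zfp445 is highest at 24.7 RPKM in control, and Zkscan5, the lowest member, has 1.92 RPKM.

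The genes next to Zscan10 were read for comparison. Its nearest neighbours, Zfp13 at 1.37 kb and Mmp25 at 18.4 kb, had 0 reads in all 9 libraries, as did the vomeronasal receptor genes Vmn2r115, Vmn2r116 and Vmn2r117 farther upstream. Zfp213, another SCAN zinc finger gene at 36.6 kb, had 54 reads in the 9 libraries together, and Ccdc64b had 2. The nearest tested gene was Thoc6, which encodes a subunit of the THO mRNA export complex, at 57.6 kb. Its levels were 23.6 ± 1.44 RPKM in control, 20.03 ± 3.63 in KO1 and 26.8 ± 2.07 in KO2. Of the genes near Zscan10 only Thoc6, Hcfc1r1 and Tnfrsf12a were tested. None of them differed between a clone and control at an adjusted p under 0.05 in limma. Over all tested genes 20.8% did so in KO1 and 22.5% in KO2, so little can be read from so few genes. Between the clones 26.5% of all tested genes were called. Thoc6 was higher in KO2 than in KO1 by 0.41 ± 0.14 (log2 change ± SE, adjusted p = 0.0235 in limma). At its ends Hcfc1r1 overlaps Thoc6 and Tnfrsf12a, both on the opposite strand, and the sources used here do not say whether counting used the strand. Hcfc1r1 had 18.4 ± 4.26 normalised reads in control, 21.97 ± 2.21 in KO1 and 12.3 ± 0.603 in KO2. Its change of -0.78 ± 0.26 from KO1 to KO2 also passed (adjusted p = 0.0214 in limma). Both calls were lost in DESeq2, with adjusted p of 0.149 and 0.136, and without KO1 replicate 2, with 0.191 and 0.0814. They were also lost without KO1 replicate 3, with 0.0532 and 0.0604. Leaving out KO2 replicate 3 ended the call of Thoc6 (0.106), and leaving out KO2 replicate 2 ended that of Hcfc1r1 (0.0563). FPKM values ended the call of Hcfc1r1 (0.168), and a fit of the clones alone that of Thoc6 (0.0562). Tnfrsf12a, at 64.4 kb, was called in KO2 against control without KO2 replicate 1 (0.76, adjusted p = 0.0277), and with all libraries its change was 0.50 ± 0.24 (adjusted p = 0.141 in limma).

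**Figure D3:**
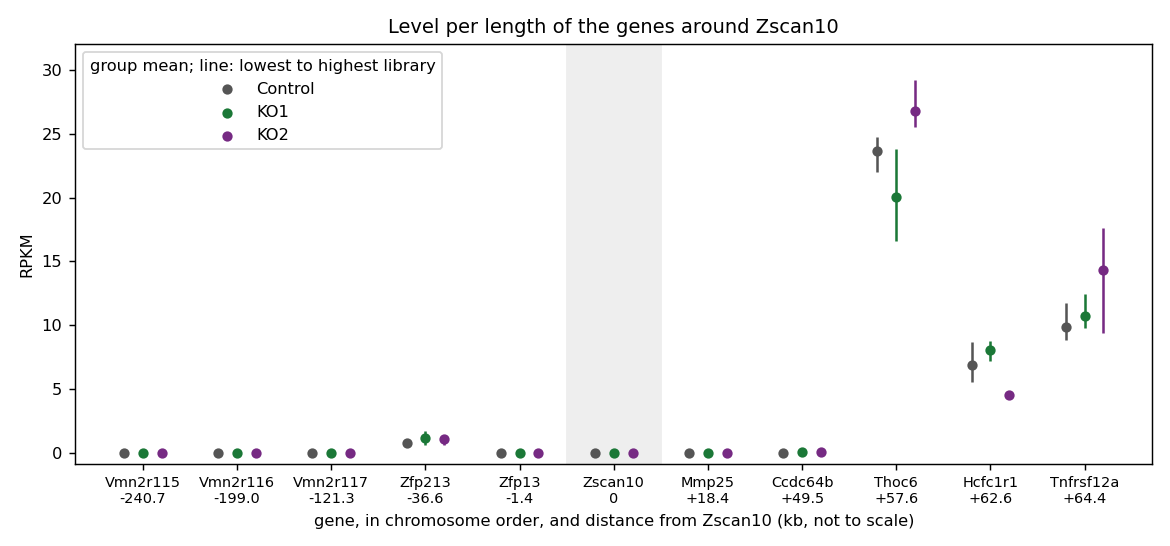
RPKM of the 5 nearest listed genes on each side of Zscan10, in chromosome order, with the distance from Zscan10 in kb under each name (the horizontal axis is not to scale). Points are means of 3 libraries and lines run from the lowest to the highest library. Zscan10 and its nearest neighbours are at 0, and the first gene with more than 54 reads is Thoc6, 57.6 kb away.

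Promoters were compared because the members differ in whether any read was found. RefSeq promoters (300 bases around the annotated start, GRCm38.p6) were found for 8 of the 10 members, all but Zkscan3 and Zkscan5. The motif counted was CG, read on 1 strand since its reverse complement is the same. The Zscan10 promoter held 4 of them in 300 bases, the lowest number of the 8. The 7 promoters of expressed members held 8 (Zkscan1) to 32 (Zscan29), with a median of 13. Over all 27025 RefSeq promoters the median was 7, and 94.2% held at least 1 CG. It was 22 over 7306 promoters of tested genes and 4 over 6465 promoters of genes with no read. Zkscan2, with 30 CG in its promoter, also had no read, so a CG-rich promoter did not always go with reads. Peg3 had no read either, with 13 CG, the median of the expressed members. These counts describe the windows and were not tested. The promoters of Zscan10, of Zscan12, which differed between the clones, and of Zkscan1, which had the most reads among the members, are printed with each CG in capitals. They lie at chr17:23600576-23600875, chr13:21362570-21362869 and chr5:138084834-138085133, all on the plus strand.
Zscan10 promoter: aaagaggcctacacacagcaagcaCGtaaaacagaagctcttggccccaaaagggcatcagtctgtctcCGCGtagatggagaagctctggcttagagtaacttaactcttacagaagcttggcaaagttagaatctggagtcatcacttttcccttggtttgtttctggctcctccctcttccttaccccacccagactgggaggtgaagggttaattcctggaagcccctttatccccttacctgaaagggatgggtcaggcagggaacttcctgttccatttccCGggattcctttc
Zscan12 promoter: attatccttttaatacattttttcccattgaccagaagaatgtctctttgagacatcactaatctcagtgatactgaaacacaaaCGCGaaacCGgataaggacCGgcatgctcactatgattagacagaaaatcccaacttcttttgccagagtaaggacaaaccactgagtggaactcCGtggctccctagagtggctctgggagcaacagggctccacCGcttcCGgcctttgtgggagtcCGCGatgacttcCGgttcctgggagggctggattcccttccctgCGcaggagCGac
Zkscan1 promoter: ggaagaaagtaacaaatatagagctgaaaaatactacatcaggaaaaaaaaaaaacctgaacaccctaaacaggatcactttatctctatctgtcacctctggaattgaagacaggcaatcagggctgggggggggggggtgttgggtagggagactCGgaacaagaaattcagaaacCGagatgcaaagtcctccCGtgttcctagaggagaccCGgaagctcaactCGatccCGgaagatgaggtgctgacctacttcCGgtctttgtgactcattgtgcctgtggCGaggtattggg

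**Figure D4:**
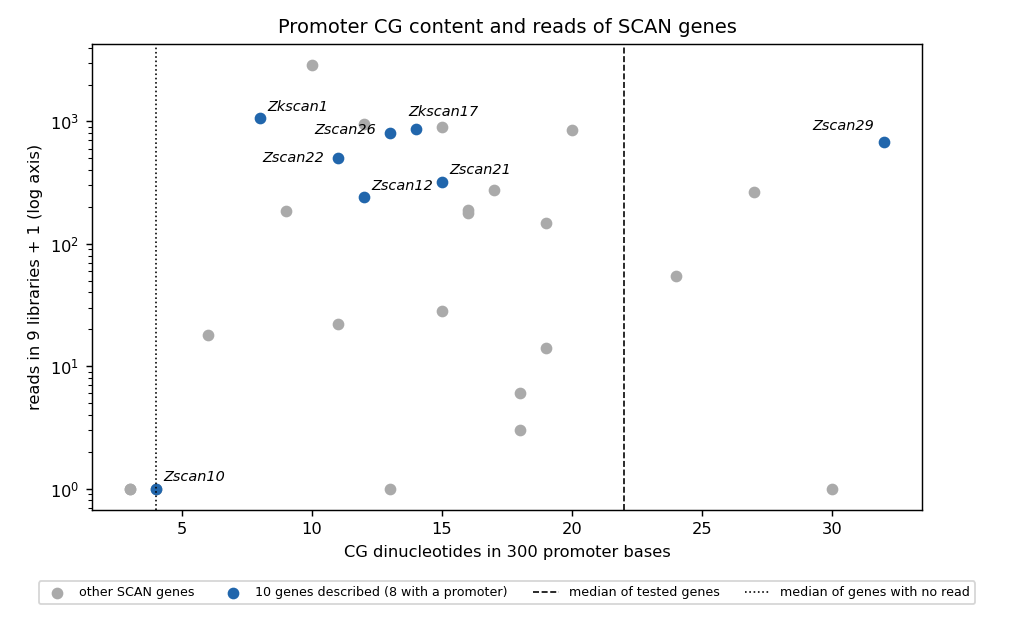
Number of CG dinucleotides in 300 promoter bases (horizontal axis) against the reads in the 9 libraries together, plus 1, on a log axis, for the 30 SCAN genes with a RefSeq promoter. Blue points are members and grey points other SCAN genes, the dashed line is the median of tested genes (22) and the dotted line that of genes with no read (4). Zscan10 lies at 4 CG with 0 reads, and the 7 other members lie at 8 to 32 CG.

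One fit over all 9 libraries gave the change of every clone against control and of KO2 against KO1. The comparisons share samples, so their values are given side by side. No member passed an adjusted p of 0.05 in either clone against control. In KO1 0 of 9 tested members were called against 20.8% of all tested genes, and 2 had an unadjusted p under 0.05 in limma (Zscan12 and Zscan29). In KO2 0 of 9 were called against 22.5% of all tested genes, and 0 had an unadjusted p under 0.05. The quasi-likelihood test of edgeR, DESeq2 and limma-voom also called 0 members in both comparisons. The median log2 change of the members was -0.04 in KO1, beside -0.01 for all tested genes, and -0.09 in KO2, beside -0.01. The 95% intervals of the changes reached 0.23 (Zkscan1) to 0.57 (Zkscan5) to either side on the log2 scale. They are not adjusted for the number of genes tested, so a call needed a larger change than this. In KO1 the intervals of Zscan12 (-0.94 to -0.02) and Zscan29 (-0.56 to -0.03) lay below 0, and neither gene was called. Changes of this size or smaller could therefore be missed at this depth. Between the clones 1 of 9 members, Zscan12, was called, against 26.5% of all tested genes (12.9% higher in KO2), and 3 had an unadjusted p under 0.05 (Zscan12, Zscan29 and Zkscan3).

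**Figure D5:**
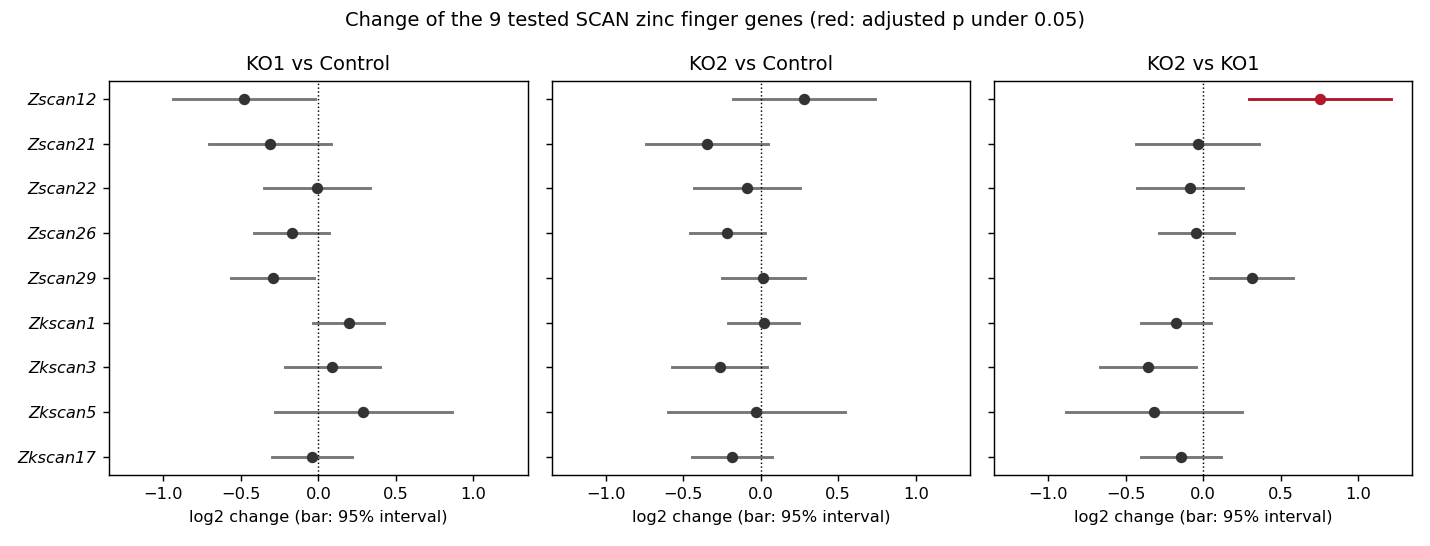
Log2 change on the log2(normalised reads + 1) scale of the 9 expressed members in the 3 comparisons. Points are limma estimates, bars their 95% intervals, and red marks an adjusted p under 0.05. Zscan12 between the clones, at 0.75, is the 1 point in red.

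Zscan12 is a SCAN zinc finger gene on chromosome 13. Its control libraries had 28.8, 28.5 and 24.1 normalised reads, the KO1 libraries 22.7, 19.0 and 16.3, and the KO2 libraries 24.5, 36.3 and 40.1. All KO1 libraries were below all control and all KO2 libraries, and KO2 overlapped with control. Zscan12 rose by 0.75 ± 0.23 from KO1 to KO2 on the log2 scale, a 1.74-fold difference of the group means (adjusted p = 0.00915 in limma, 95% interval 0.30 to 1.21). The change was -0.48 ± 0.23 in KO1 against control (adjusted p = 0.142) and 0.28 ± 0.23 in KO2 against control (adjusted p = 0.446), both in limma. The difference between the clones rested on few reads: the call was lost in DESeq2 (0.79, adjusted p = 0.0694), without KO1 replicate 3 (0.64, adjusted p = 0.0552) and without KO2 replicate 3 (0.62, adjusted p = 0.0768). With FPKM values in place of normalised reads, a setting added after the data were seen, it was 0.77 (adjusted p = 0.0587).

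Zscan29 had 71.5, 82.5 and 83.9 normalised reads in the control libraries, 66.0, 64.9 and 62.0 in KO1, and 85.9, 76.6 and 77.9 in KO2. The KO1 libraries were below all 6 others. The differences did not pass the adjusted threshold: the log2 change was -0.30 ± 0.13 in KO1 against control (adjusted p = 0.115) and 0.31 ± 0.13 from KO1 to KO2 (adjusted p = 0.0774), both in limma. In KO2 against control it was 0.02 with a 95% interval of -0.25 to 0.28. Zscan29 lies 0.057 kb from Tubgcp4, which is on the other strand.

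Zscan21 and Zscan26 were lower in all 6 clone libraries than in all 3 control libraries, by changes that did not pass the test. Zscan21 had 39.3, 42.2 and 42.0 normalised reads in control, 37.1, 24.95 and 38.6 in KO1, and 32.1, 32.4 and 31.9 in KO2. Its log2 changes against control were -0.31 ± 0.20 in KO1 (adjusted p = 0.303) and -0.35 ± 0.20 in KO2 (adjusted p = 0.225, limma). With FPKM values Zscan21 passed in KO2 (-0.39, adjusted p = 0.0464). Zscan26 had 98.6, 100.2 and 95.5 normalised reads in control, 86.6, 87.8 and 86.4 in KO1, and 89.6, 75.6 and 88.5 in KO2. The log2 changes were -0.17 ± 0.12 in KO1 (adjusted p = 0.364) and -0.21 ± 0.12 in KO2 (adjusted p = 0.220, limma). Zscan26 overlaps the microRNA gene Mir1896 on the opposite strand, and the sources used here do not say whether counting used the strand. In KO1, 5 of the 9 members had libraries that did not overlap with control (Zscan12, Zscan21, Zscan26 and Zscan29 lower, Zkscan1 higher), against 32.9% of all tested genes. In KO2 these were 2 of 9, Zscan21 and Zscan26, against 34.5%. Between the clones they were also 2 of 9, Zscan12 and Zscan29, against 37.4%.

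Zscan22 varied more among the KO1 libraries than between the group means. It had 56.7, 53.0 and 58.7 normalised reads in control, 77.3, 40.9 and 54.9 in KO1, and 54.7, 46.1 and 57.8 in KO2. The groups overlapped in each comparison, and the log2 change was -0.01 in KO1 against control (95% interval -0.35 to 0.33) and -0.09 in KO2 (95% interval -0.43 to 0.25).

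Of the members with a KRAB domain in their name, Zkscan1 had 118.6, 112.9 and 103.9 normalised reads in control, 129.9, 127.8 and 126.0 in KO1, and 111.3, 93.3 and 139.3 in KO2. The KO1 libraries were above all control libraries, and KO2 spanned both groups. The log2 change in KO1 was 0.19 ± 0.11 against control (adjusted p = 0.250, limma). Zkscan3, whose human counterpart is known as a repressor of autophagy genes, had 55.8, 69.7 and 64.0 normalised reads in control, 66.0, 74.9 and 61.0 in KO1, and 45.3, 50.1 and 62.5 in KO2. Its groups overlapped in all comparisons, and its largest change was -0.36 ± 0.15 from KO1 to KO2 (adjusted p = 0.0814, limma). KO2 replicate 3 was the highest KO2 library for both genes. Without it, Zkscan1 (-0.32, adjusted p = 0.0403) and Zkscan3 (-0.48, adjusted p = 0.0276) passed between the clones.

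Zkscan17 had 109.0, 78.6 and 118.5 normalised reads in control, 102.0, 105.8 and 86.4 in KO1, and 83.03, 96.2 and 86.1 in KO2. The control libraries spanned all 6 clone libraries, with replicate 2 the lowest of the 9. The log2 change in KO2 against control was -0.19 ± 0.13 (adjusted p = 0.340, limma), and it passed without control replicate 2 (-0.36, adjusted p = 0.0433). Zkscan17 overlaps 4933439C10Rik on the opposite strand. Zkscan5 had the fewest reads of the 9, with 13.96, 10.8 and 22.03 normalised reads in control, 16.5, 18.0 and 21.3 in KO1, and 13.2, 11.8 and 20.1 in KO2. Its groups overlapped throughout, and the 95% interval in KO1 against control ran from -0.28 to 0.86 on the log2 scale.

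No member had a q-value under 0.05 in any comparison of the authors' deposited tables. The lowest q in the authors' deposited tables was 0.0787 for Zkscan1 in KO1 against control, 0.115 for Zkscan17 in KO2 against control and 0.0959 for Zscan29 between the clones. The authors' deposited tables marked 7 of the 9 as tested in each of these comparisons. Zscan12 and Zkscan5 were marked as not tested. The authors' pairwise q-values therefore say nothing on the difference of Zscan12 between the clones.

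The members sit close to other SCAN genes. Of the 10, 8 lay within 200 kb of another SCAN gene. The 168 kb stretch chr13:21362820-21531114 holds Zscan12, Zkscan3, Zscan26, Zkscan4 and Zkscan8, and Zkscan1 and Zscan21 lie side by side on chromosome 5, 9.08 kb apart. From KO1 to KO2 the log2 change was 0.75 for Zscan12, -0.36 for Zkscan3 and -0.04 for Zscan26, of which the first passed the test. For Zkscan1 and Zscan21 it was -0.18 and -0.04 from KO1 to KO2 and 0.19 and -0.31 in KO1 against control, none of which passed. The median change of all 345 tested genes of chromosome 13 was 0.00 between the clones, and that of the 622 on chromosome 5 was -0.01 in KO1 against control.

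Across the 9 libraries, Pearson's r of log2 levels between pairs of the 9 expressed members ran from -0.52 (Zscan29 and Zkscan1) to 0.58 (Zscan12 and Zscan29), with a median of 0.01 over 36 pairs, 19 of them positive. The libraries of a group are not independent of group differences, and at these read numbers weak values of r are no finding. Among all tested genes, those with a pattern most like a member of mean 50 or more were read off in the same way for 5 members. For Zscan26 they were Mum1 and C3 (0.94 and 0.93), for Zkscan3 Shoc2 and Mrpl44 (0.94 and 0.91), for Zscan22 Ccdc28b and Mfap3 (0.92 and 0.92), for Zkscan1 Hivep1 and Ssna1 (0.92 and 0.90), and for Zkscan17 BC029722 and Zfp646 (0.91 and 0.91). Each is among the highest of the correlations with all tested genes, over 9 libraries that share their groups.

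Of the 15 other SCAN genes that were tested, 2 rose and 2 fell in KO1 against control, where 10.5% of all tested genes rose and 10.2% fell. In KO2 against control 1 rose and 0 fell, where 10.7% rose and 11.8% fell. From KO1 to KO2 1 rose and 1 fell, where 12.9% rose and 13.5% fell. The median log2 changes of the 15 were -0.03, 0.00 and 0.10. Zfp263 had 65.4, 76.6 and 81.8 normalised reads in control, 119.6, 87.8 and 83.3 in KO1, and 116.0, 96.2 and 122.7 in KO2. All clone libraries were above all control libraries. It rose by 0.57 ± 0.13 in KO2 (adjusted p = 0.000466) and by 0.36 ± 0.13 in KO1 (adjusted p = 0.039, limma). The KO1 call was lost in DESeq2 (adjusted p = 0.158) and without control replicate 1 (0.201), control replicate 2 (0.0532) or KO1 replicate 1 (0.384), and with FPKM values (0.198) or the looser filter of 1 read in 3 libraries (0.0745). Zfp202, whose human counterpart represses genes of lipid metabolism, had 23.9 ± 8.73 normalised reads in control and 37.9 ± 0.943 in KO1. It rose by 0.70 ± 0.22 in KO1 (adjusted p = 0.0154, limma), a call lost in DESeq2 (0.116), without control replicate 1 (0.170), without KO1 replicate 2 (0.0514) and with FPKM values (0.159).

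Zfp110, which encodes a neurotrophin receptor-interacting factor in mouse, had 121.3, 113.9 and 110.1 normalised reads in control, 85.5, 72.9 and 74.2 in KO1, and 106.6, 111.9 and 99.1 in KO2. The KO1 libraries were below all 6 others. Zfp110 fell by 0.57 on the log2 scale in KO1 (SE 0.12, adjusted p = 0.000121) and was higher by 0.45 ± 0.12 in KO2 than in KO1 (adjusted p = 0.00209, limma). Zfp369, a closely related copy, had 36.9 ± 2.90 normalised reads in control and 22.3 ± 5.59 in KO1. It fell by 0.73 in KO1 (SE 0.22, adjusted p = 0.00948, limma), and the call was lost in DESeq2 (0.0919), without control replicate 2 (0.0516) and without KO1 replicate 1 (0.0794). Reads may be split between the copies, so the assignment to 1 of them is uncertain. Zfp446 had 18.9 ± 5.29 normalised reads in KO1 and 9.22 ± 1.28 in KO2, and fell by 0.93 from KO1 to KO2 (SE 0.30, adjusted p = 0.0143, limma). Its call was lost in DESeq2 (0.0939) and without KO1 replicate 2 (0.111), KO1 replicate 3 (0.0514) or KO2 replicate 2 (0.0604), and with FPKM values (0.0739). The tested genes of largest mean that were not called were Zfp445, with log2 changes of -0.03 ± 0.07 in KO1 and -0.06 ± 0.07 in KO2, and Zfp397, with -0.23 ± 0.12 and -0.17 ± 0.12. On leaving out 1 library the change of Zfp397 in KO2 ran from -0.35 to -0.01, and it was called without KO2 replicate 3 (-0.35, adjusted p = 0.0402).

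The corepressors through which KRAB domains act were expressed in all groups. Of 15 corepressor and heterochromatin genes, all tested, 2 rose and 2 fell in KO1 against control, 2 rose and 4 fell in KO2 against control, and 4 rose and 2 fell from KO1 to KO2 (median log2 changes -0.08, -0.02 and 0.06). Over all tested genes 20.8%, 22.5% and 26.5% were called in these comparisons. Chd3, a subunit of the NuRD remodelling complex, had 132.6, 127.6 and 128.0 normalised reads in control, 170.1, 175.7 and 164.6 in KO1, and 220.8, 223.8 and 216.0 in KO2. No 2 groups overlapped. It rose by 0.39 ± 0.09 in KO1 (adjusted p = 0.000329), by 0.76 ± 0.09 in KO2 (adjusted p = 1.15e-10) and by 0.37 ± 0.09 from KO1 to KO2 (adjusted p = 0.000534, limma). The 2 genes of the list that fell in KO1 were Chd4 (-0.15 ± 0.04, adjusted p = 0.00392) and Cbx5 (-0.22 ± 0.05, adjusted p = 0.000187, limma). Chd4 had more reads than Chd3, with 1169 ± 60.2 normalised reads in control, 1050 ± 26.7 in KO1 and 1241 ± 37.0 in KO2. Nsd1, which methylates histone H3 at lysine 36 and is the namesake partner of Zkscan17, had 26.2, 16.7 and 24.1 normalised reads in control, 11.3, 16.97 and 16.3 in KO1, and 31.1, 30.4 and 38.9 in KO2. It rose by 1.13 ± 0.24 from KO1 to KO2 (adjusted p = 0.000199, limma). Nsd1 was called in KO1 against control without control replicate 2 (-0.74, adjusted p = 0.0438) and not with all libraries (-0.55 ± 0.24, adjusted p = 0.107). With FPKM values the difference between the clones was 1.01 (adjusted p = 0.112).

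Suv39h2, a histone H3 lysine 9 methyltransferase, had 63.7 ± 12.6 normalised reads in control, 60.2 ± 10.4 in KO1 and 44.2 ± 2.58 in KO2. It fell by 0.50 in KO2 against control (SE 0.16, adjusted p = 0.019) and by 0.43 from KO1 to KO2 (SE 0.16, adjusted p = 0.0472, limma). The first call was lost in DESeq2 (0.109) and without control replicate 2 (0.162), control replicate 3 (0.063) or KO2 replicate 2 (0.0719), and with FPKM values (0.184). The second was lost in DESeq2 (0.185) and on leaving out control replicate 3 or any KO1 or KO2 library other than KO1 replicate 1 (adjusted p of 0.05 to 0.267). FPKM values (0.175), the looser filter (0.075), a pseudocount of 0.1 (0.053) and a fit of the clones alone (0.0766) ended it too. Atf7ip, a partner of Setdb1, had 63.0 ± 9.11 normalised reads in control and 87.0 ± 1.87 in KO1. It rose by 0.47 ± 0.14 in KO1 (adjusted p = 0.00828, limma), a call lost in DESeq2 (0.0747) and without control replicate 3 (0.0864).

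Since human ZKSCAN3 is known for its hold on autophagy genes, 20 of these were listed. Of the 18 tested, 2 rose and 0 fell in KO1 against control, 1 rose and 1 fell in KO2 against control, and 0 rose and 1 fell from KO1 to KO2 (median log2 changes 0.00, 0.00 and -0.01), beside 20.8%, 22.5% and 26.5% of all tested genes called in either direction. Sqstm1, the autophagy receptor p62, had 634.2, 644.1 and 601.1 normalised reads in control, 687.5, 647.8 and 741.8 in KO1, and 541.6, 576.3 and 551.1 in KO2. All KO2 libraries were below and all KO1 libraries above the control libraries. It fell by 0.31 from KO1 to KO2 (SE 0.05, adjusted p = 1.88e-06, limma). Against control its change was 0.14 ± 0.05 in KO1 (adjusted p = 0.0415) and -0.17 ± 0.05 in KO2 (adjusted p = 0.0106, limma). DESeq2 gave 0.147 and 0.0862 for these, and the KO1 call was also lost without control replicate 1 (0.0648), control replicate 3 (0.195), KO1 replicate 1 (0.0771) or KO1 replicate 3 (0.32), and with FPKM values (0.0882) or the looser filter (0.0634). The KO2 call was lost without control replicate 2 (0.0542) or KO2 replicate 1 (0.0561). Gabarapl2, a ubiquitin-like protein of autophagosome membranes, rose by 0.30 ± 0.10 in both clones (adjusted p = 0.0164 in KO1 and 0.0163 in KO2, limma). DESeq2 called neither (0.112 and 0.116). The KO1 call was lost without control replicate 1, control replicate 2, KO1 replicate 1 or KO1 replicate 3 (0.059 to 0.0948), and the KO2 call without control replicate 1, control replicate 2, KO2 replicate 1 or KO2 replicate 3 (0.057 to 0.0942). Becn1 and Gabarap, the next by level, were not called in any comparison on normalised reads of all libraries. Becn1 had a change of -0.18 ± 0.09 in KO1, and was called between the clones without KO1 replicate 3 (0.26, adjusted p = 0.0419). Gabarap had a change of 0.13 ± 0.07 in KO1, and was called between the clones with FPKM values (-0.16, adjusted p = 0.0193).

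Klf4, a factor of stem cells and also of myeloid cells, was the 1 tested gene of the 22 pluripotency genes. It had 8.72, 13.7 and 9.44 normalised reads in control, 14.4, 15.97 and 18.3 in KO1, and 16.98, 19.6 and 20.1 in KO2. All clone libraries were above all control libraries. It rose by 0.79 ± 0.28 in KO2 (adjusted p = 0.0321, limma), and the change of 0.58 ± 0.28 in KO1 did not pass (adjusted p = 0.145, limma). The KO2 call was lost in DESeq2 (0.198) and without control replicate 1 (0.136), control replicate 3 (0.0983), KO2 replicate 2 (0.0885) or KO2 replicate 3 (0.0927), and with FPKM values (0.0598). Among the pluripotency genes not tested, Tfcp2l1 had 25 reads in control, 31 in KO1 and 5 in KO2. Klf2 had 10, 11 and 15 reads.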

How the data were processed

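RNA from the 9 libraries was made into stranded mRNA libraries with a TruSeq kit, per the labels' protocols. Tools in the submitters' processing notes are edgeR 3.20.1, featureCounts 1.4.6, TopHat2 2.0.22 and Cufflinks 2.1.1, and the build is mm10. Their roles are not given. For the 9 libraries together the authors deposited a signal table, named for the TMM method, in which the counts of a library share a scaling factor. All values were whole multiples of 1 step per library within 1e-06, so reads were recovered. The deposited pairwise tables hold FPKM values, p-values and q-values of the authors. FPKM is per table, so levels across groups use RPKM from the recovered reads.

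The test was limma-trend (limma 3.58.1, R 4.3.3) on log2(normalised reads + 1), with a term for group over all 9 libraries, Benjamini-Hochberg adjustment over the 9564 genes that reached 10 normalised reads in 3 or more libraries, and calls at an adjusted p under 0.05. Fold changes of low genes are understated on this scale. Alternatives were edgeR 4.0.16, DESeq2 1.42.0, limma-voom, other size factors, filters and a pseudocount of 0.1, only the groups compared, a replicate block, leaving out each library and, added after the data were seen, FPKM values. The design named edgeR for raw counts, and the limma test for normalised values was used. The procedure was tested on simulated data.

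Members, lists and the rule for named genes were chosen with earlier results of these data known. The rule took all 10 members, tested SCAN relatives with values for those called and the 2 of largest mean not called, up to 4 genes of each other list, 5 genes on each side of Zscan10, and for likeness the 2 highest Pearson r, which are not reported here for Zscan29. Of 145 listed names, 143 matched a row, 3 by an older symbol. Limits from 3 reads cover counting error only. Libraries of the same replicate number in different groups had residual correlations of -0.0171 to 0.0279, so the numbers were not taken as pairs.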

Additional observations from a re-analysis of the deposited data

Results flagged for a closer look

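Several genes differed between KO2 and KO1, so that the same comparison with control gave different sizes in the 2 clones, by limma's test of that difference. Among the SCAN genes these were Zscan12 (0.75 on the log2 scale), Zfp110 (0.45) and Zfp446 (-0.93). Of the corepressor and heterochromatin genes, 4 rose and 2 fell from KO1 to KO2. Those named by the rule were Nsd1 (1.13), Chd3 (0.37) and Suv39h2 (-0.43). Sqstm1 of the autophagy genes differed by -0.31. Of the genes near Zscan10, Thoc6 (0.41) and Hcfc1r1 (-0.78) differed. Over all tested genes 26.5% differed between the clones at the same threshold.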

How the results depend on the processing

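Counts of all called genes moved most in DESeq2, to 1236, 1396 and 1612 from 1985 (KO1 against control), 2152 (KO2 against control) and 2533 (KO2 against KO1). Leaving out 1 library gave 1673 to 2020, 1824 to 2154 and 2140 to 2564. The count of called members stayed at 0 in KO1 against control under all settings run. In KO2 against control it was 0, with 1 on FPKM values and 0 to 1 on leaving out a library. Between the clones it was 1, with 0 in DESeq2, 0 on FPKM values and 0 to 2 on leaving out a library. A replicate block, with numbers that show no pairing, gave 2001, 2171 and 2545 called genes and 0, 0 and 1 members. No called value changed sign under any setting run, among the genes followed singly through the settings. The cell type markers, Chd4 and Cbx5 were not among these genes. Other size factors shifted the median change of all genes by at most 0.01 on the log2 scale.

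Depth sets the limits here. For reads of the 9 expressed members, chi-square over its degrees of freedom among libraries was 0.995 in control, 1.15 in KO1 and 1.29 in KO2, so most of their spread has the size of counting error. Zscan10 could not be measured.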
